A study of Mus musculus with 18 samples.

Results

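The core circadian clock genes Bmal1, Clock, Npas2, Per1, Per2, Per3, Cry1, Nr1d1, Nr1d2 and Dbp were examined in mouse liver. The 10 genes were chosen by symbol (Bmal1 is Arntl in older releases), as the genes that build the daily feedback loop and its best known output, out of 52230 genes with summed counts. All 10 were listed in every library, and 8 passed the filter on low counts, as did 10938 genes in all. Bmal1 and Npas2 did not pass it.

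RNA-sequencing had been run on whole liver from 18 mice, 1 library per mouse, to ask how the leucine form of GKRP, the glucokinase regulatory protein encoded by Gckr, changes liver transcripts in each sex. MPP were male mice with the Gckr-446P form (proline, wild type; n = 4) and MLL were male mice with the Gckr-446L knock-in form (leucine; n = 4). FPP were female Gckr-446P mice (n = 5) and FLL were female Gckr-446L mice (n = 5). All mice were of 1 line on a B6N background (GCKR-P446L-EMI-B6N), ate a standard chow diet and were housed under a light and dark cycle. The labels give ages of 9 to 14 weeks in MPP, 13 to 14 in MLL, 9 to 14 in FPP and 11 to 14 in FLL mice. The submitters' design text instead puts every mouse at 14 weeks, and label ages were used where age enters a result. The time of day at which each mouse was culled is not given in the sources used here, so clock gene levels were read per mouse without a time axis. The edit lies in the coding sequence and leaves Gckr transcripts countable in every group, so the Gckr level does not check the genotype labels. Gckr had 518 ± 82.2 normalized counts (SD, n = 4) in MPP, 478 ± 24.6 (n = 4) in MLL, 611 ± 114 (n = 5) in FPP and 592 ± 60.6 (n = 5) in FLL mice.

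The clock is a loop of transcription factors. BMAL1 pairs with CLOCK or, in some tissues, NPAS2, and the pair binds E-box sequences and switches on the Per and Cry genes, whose proteins return to the nucleus and block the pair. The same pair switches on Nr1d1 and Nr1d2, which encode the repressors REV-ERBα and REV-ERBβ, and these bind RORE sequences and hold down Bmal1, Npas2, Clock and Cry1. DBP binds D-box sequences and carries the rhythm to the Per genes and to liver enzymes. In mouse liver under a light and dark cycle, Bmal1, Clock and Npas2 transcripts are highest around the end of the night and the start of the day. Nr1d1 peaks next, in the first part of the day, with Dbp somewhat later, while Per1 and Per2 are highest around dusk and Cry1 is highest in the night.

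The promoters of the members that held a clock motif are shown because the factors of the loop act through these motifs. Each is 280 bases, from 250 before to 30 bases from the start of the GENCODE M39 canonical transcript, read 5′ to 3′ on the strand of the gene from the GRCm39 genome, with the motif in capitals. Per1 (chr11:68989018-68989297, plus strand) and Cry1 (chr10:85020920-85021199, minus strand) each held 1 E-box, CACGTG. Per2 (chr1:91387017-91387296, minus strand) held 1 D-box and Per3 (chr4:151129111-151129390, minus strand) held 2, all TTATGTAA. Dbp (chr7:45354262-45354541, plus strand) held 2 RORE cores, TGGGTCA and TAGGTCA.
Per1: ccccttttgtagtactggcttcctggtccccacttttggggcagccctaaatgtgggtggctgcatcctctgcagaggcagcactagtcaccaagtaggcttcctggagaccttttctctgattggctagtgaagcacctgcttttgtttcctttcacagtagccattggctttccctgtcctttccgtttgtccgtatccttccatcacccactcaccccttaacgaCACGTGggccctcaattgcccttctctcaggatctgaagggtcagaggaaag
Cry1: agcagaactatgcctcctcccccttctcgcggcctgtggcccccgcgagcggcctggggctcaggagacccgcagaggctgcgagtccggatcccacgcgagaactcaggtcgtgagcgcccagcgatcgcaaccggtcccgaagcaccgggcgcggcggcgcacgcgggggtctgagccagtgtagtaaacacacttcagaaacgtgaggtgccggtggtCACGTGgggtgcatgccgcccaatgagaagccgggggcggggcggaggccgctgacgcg
Per2: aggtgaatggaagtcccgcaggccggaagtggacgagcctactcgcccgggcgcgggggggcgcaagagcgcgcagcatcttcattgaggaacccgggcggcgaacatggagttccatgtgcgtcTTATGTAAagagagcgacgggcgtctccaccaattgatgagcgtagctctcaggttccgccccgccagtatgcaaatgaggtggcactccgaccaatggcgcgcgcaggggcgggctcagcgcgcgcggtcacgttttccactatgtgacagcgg
Per3: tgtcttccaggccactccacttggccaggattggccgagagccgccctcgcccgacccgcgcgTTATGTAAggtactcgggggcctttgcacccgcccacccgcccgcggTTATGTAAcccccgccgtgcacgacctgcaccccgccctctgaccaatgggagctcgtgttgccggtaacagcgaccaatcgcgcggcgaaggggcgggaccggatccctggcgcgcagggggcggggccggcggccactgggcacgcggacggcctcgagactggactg
Dbp: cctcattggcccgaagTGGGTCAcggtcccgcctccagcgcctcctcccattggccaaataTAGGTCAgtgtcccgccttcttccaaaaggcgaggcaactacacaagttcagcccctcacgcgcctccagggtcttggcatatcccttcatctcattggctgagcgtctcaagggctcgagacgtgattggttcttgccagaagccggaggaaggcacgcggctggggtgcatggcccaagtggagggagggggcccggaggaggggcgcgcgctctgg
The first base of the E-box lay at position -22 from the start in Per1 and at -29 in Cry1, that of the D-box at -125 in Per2 and at -187 and -140 in Per3, and those of the RORE cores at -234 and -189 in Dbp. The motifs searched on both strands were the E-box CACGTG, the D-box TTATGTAA or TTACGTAA and the RORE core TAGGTCA or TGGGTCA. Of 21770 promoters of the same length, 7.35% held the E-box, 1.02% the D-box and 5.78% the RORE core. The windows of Bmal1, Clock, Npas2, Nr1d1 and Nr1d2 held none of these letters.

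The libraries held 3794671 to 6613905 estimated counts. Normalized counts are these counts divided by a size factor per library, and the depth sets how well a low gene can be read. A level of 3 counts, the limit that a count of 0 allows, stood for 0.454 to 0.791 counts in every 1000000 (CPM). The mean fragment length of a library differed more between groups than depth did, at 396 to 630 bases in MPP, 203 to 582 in MLL, 369 to 631 in FPP and 247 to 377 in FLL mice. Hepatocyte markers (Alb, Apoa1, Ttr, Cps1, Pck1, Cyp2e1) were measured in every library, and the adipocyte markers Adipoq and Lep were at 0 in every library.

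The genes of the positive arm of the loop were scarce in these livers apart from Clock. Bmal1 (ENSMUSG00000055116, chromosome 7, 112806152 to 112914735), the obligate partner of CLOCK, had 54 counts in all among 94261988 counts, or 0.573 CPM. Npas2 (ENSMUSG00000026077, chromosome 1, 39232705 to 39402323), the alternative partner, had 6 counts. Dbp had 5458 counts, or 57.9 CPM, and its transcripts were read in every library.

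Bmal1 normalized counts were 0, 4.2, 2.82 and 1.80 in MPP, 5.18, 3.60, 5.35 and 2.16 in MLL, 0.798, 1.82, 0, 4.53 and 4.16 in FPP and 1.82, 3.95, 6.50, 1.23 and 1.09 in FLL mice, in the order of the mouse numbers. The highest single count was 8, 2 libraries had none, and all 4 groups overlapped. Npas2 was at 0 in 13 libraries and its highest count was 2. The difference in mean Bmal1 was 1.87 normalized counts between MLL and MPP mice (exact permutation test, two-sided, p = 0.171, 0.836 after adjustment over the 8 tests of both genes) and 0.659 between FLL and FPP mice (p = 0.627, adjusted p = 0.836). By the same exact permutation tests, the other Bmal1 differences were 0.0579 for FPP less MPP (p = 0.984) and -1.15 for FLL less MLL (p = 0.444). For Npas2 they were 0.840 for MLL less MPP (p = 0.429), -0.125 for FLL less FPP (p = 1), 0.307 for FPP less MPP (p = 0.556) and -0.658 for FLL less MLL (p = 0.333; exact permutation tests). The smallest p that 4 against 4 mice can give is 0.0286, 4 against 5 can give 0.0159 and 5 against 5 can give 0.00794, and a single such value does not pass an adjustment over 8 tests. Neither the number of mice nor 0 to 8 counts per library allows a statement on a difference in these 2 genes.

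**Figure D1:**
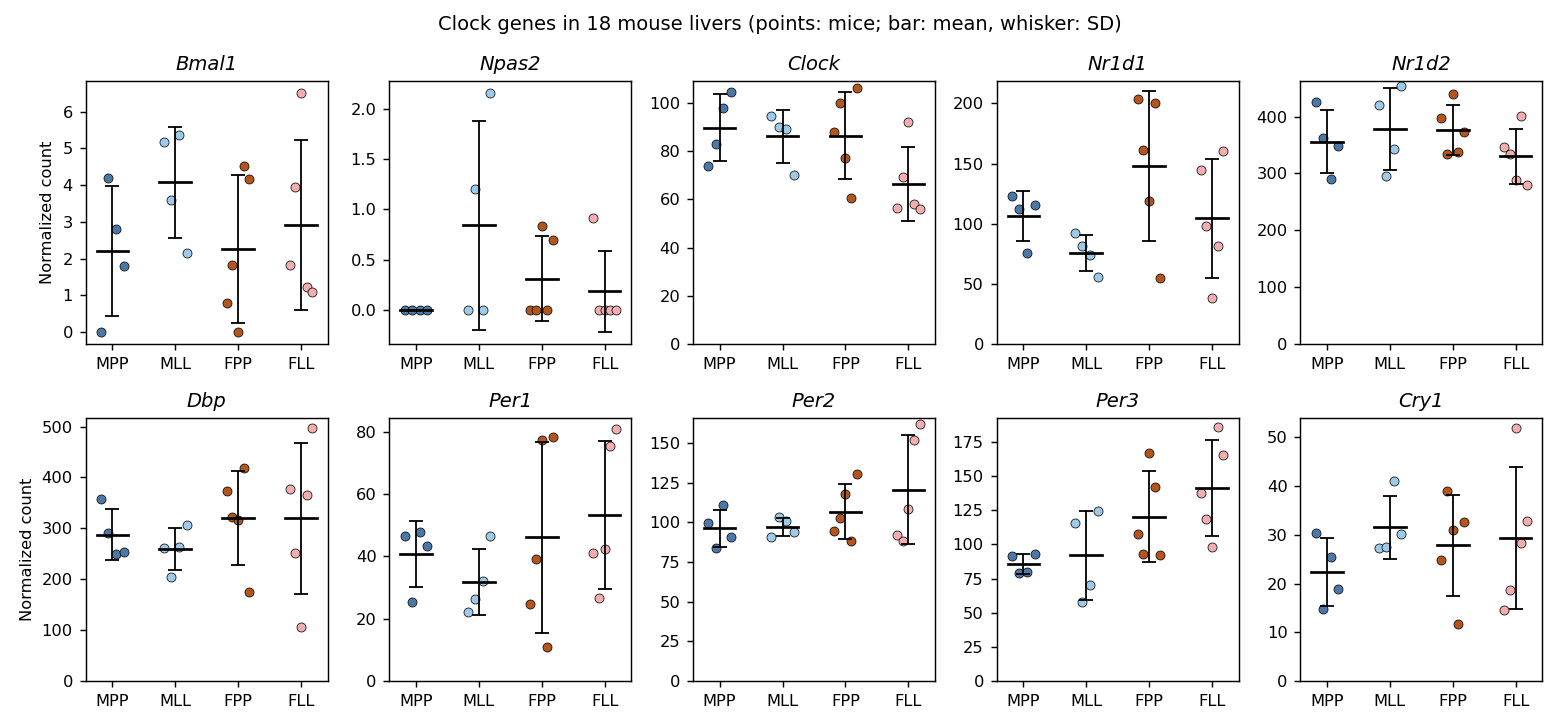
Normalized counts (vertical axes, linear, each gene on its own scale) of the 10 clock genes in the 4 groups, with 1 point per mouse in the order of the mouse numbers, a bar at the mean and a whisker of 1 SD. Bmal1 and Npas2 stay below 7 normalized counts in all 18 mice, while the points of Nr1d1, Dbp, Per1 and Cry1 spread widely within the female groups.

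Levels were compared between genes only per length, as TPM, by the median over 18 libraries. Dbp was highest at 44.4 TPM (range 19.1 to 104). Nr1d2 followed at 13.0 (5.99 to 19.4), then Nr1d1 at 5.25 (2.66 to 15.9) and Per3 at 3.57 (1.4 to 7.33). Per2 was at a median of 2.57 TPM, Per1 at 1.64, Cry1 at 1.41 and Clock at 1.06, while Bmal1 was at 0.163 and Npas2 at 0. The ranges of neighbours in this order overlapped throughout. In FLL mouse 2 Per2 reached 502 TPM, of which 499 were on a single Per2 transcript of 231 bases to which 3.95 counts were assigned. The clock genes were therefore compared between groups on gene counts and not on TPM.

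None of the 8 tested clock genes was called in any of the 6 contrasts, by DESeq2 or by edgeR. A call needed a Benjamini-Hochberg adjusted p below 0.05 over all tested genes and, except for the difference between the sexes, a fold of at least 1.3 or at most 0.7. The share of all genes called by DESeq2 was 0.284% for MLL against MPP, 0.659% for FLL against FPP, 6.45% for FPP against MPP, 6.12% for FLL against MLL, 0.979% for LL against PP averaged over the sexes and 0.119% for the difference of the LL effect between the sexes. By edgeR it was 0.0274%, 0.0274%, 5.24%, 4.28%, 0.0823% and 0% in the same order, the last being 0 of 10938 genes. With shares this low, 0 of 8 genes is close to the background in every contrast. Fewer than 8 members could be called by DESeq2 in 2 contrasts, since its filter on low means left some without an adjusted p. It gave 1 to 3 of 8 members for MLL against MPP and to 2 of 8 (Nr1d2 and Dbp) for the difference between the sexes. At an unadjusted DESeq2 p below 0.05, 0, 1, 1, 1, 1 and 0 of the 8 members passed, beside 7.83%, 13.1%, 17.5%, 20%, 13.8% and 5.67% of all genes.

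For MLL against MPP, 4 of 8 members had a higher and 4 a lower mean in MLL mice, with a median log2 fold change of -0.03 against 0.00 over all genes. The log2 fold changes were -0.07 for Clock, -0.49 for Nr1d1, 0.09 for Nr1d2, -0.15 for Dbp, -0.35 for Per1, 0.02 for Per2, 0.10 for Per3 and 0.53 for Cry1. DESeq2 gave an adjusted p for only 3 of them, Nr1d2 (0.918), Dbp (0.948) and Per3 (0.967), since its filter on low means set the others aside. The 95% intervals of the fold reached from 0.416 at the lowest (Per1) to 2.43 at the highest (Cry1), so changes inside these bounds are not settled by 4 mice a group. Nr1d2 was bounded most closely, at 0.856 to 1.33-fold.

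For FLL against FPP, 4 of 8 members were again higher in mean and 4 lower, with a median of 0.04 against 0.01 over all genes. The log2 fold changes of the others than Clock were -0.50 for Nr1d1, -0.19 for Nr1d2, -0.01 for Dbp, 0.20 for Per1, 0.16 for Per2, 0.23 for Per3 and 0.08 for Cry1. Clock (ENSMUSG00000029238, chromosome 5, 76342860 to 76452846), which encodes the partner of BMAL1, was at 87.8, 100, 77.2, 60.7 and 106 normalized counts in FPP and at 56.4, 69.2, 91.9, 58.0 and 55.8 in FLL mice. FLL mice 1, 4 and 5 lay below every FPP mouse, but FLL mouse 3 lay above 3 of the 5 FPP mice and the groups overlapped. The log2 fold change was -0.38 ± 0.19 (SE), with an unadjusted p of 0.0439 and an adjusted p of 0.319 (DESeq2), and it did not pass the test. The mean fragment length was 292 bases in FLL and 448 in FPP mice. Clock was called neither without nor with fragment length in the model, so the calls do not show the part of fragment length. Over the 18 mice, fragment length and Clock had a Pearson r of 0.43 (two-sided permutation p = 0.0745, adjusted p = 0.406). Within females r was 0.51 (Spearman's rho = 0.72), and with group means taken off it was 0.10 over all mice. The part of fragment length in the Clock difference was not tested. Fold intervals over the 8 members ran from 0.452 (Nr1d1) to 1.99 (Per1).

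**Figure D2:**
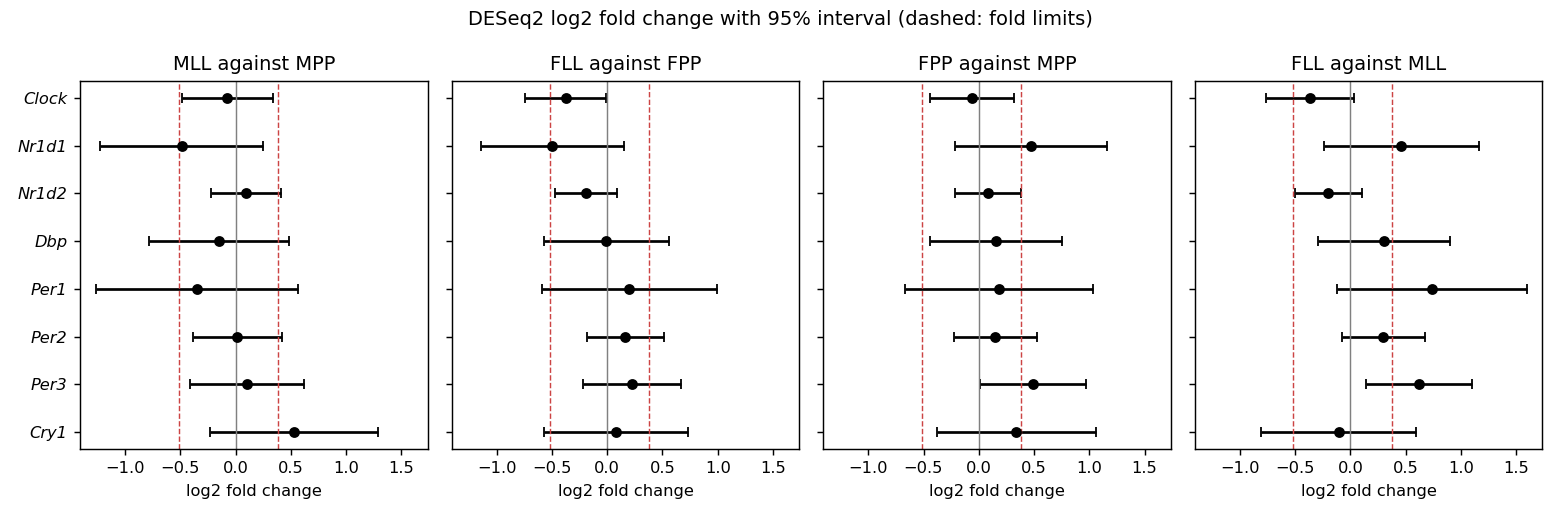
DESeq2 log2 fold change (horizontal axis) with its 95% interval for the 8 tested clock genes (rows) in 4 contrasts (panels), with dashed lines at the fold limits of 1.3 and 0.7. The point of Per3 lies to the right of 0 in both contrasts between the sexes (0.49 and 0.62), and the intervals of Nr1d1, Dbp, Per1 and Cry1 cross 0 in every panel.

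Nr1d1 (ENSMUSG00000020889, chromosome 11, 98658752 to 98666188), which encodes the repressor REV-ERBα, had the lowest p of the members when the LL effect was averaged over the sexes. Its normalized counts were 123, 112, 76.1 and 115 in MPP and 92.0, 81.5, 74.1 and 56.2 in MLL mice, and 204, 161, 119, 200 and 54.8 in FPP and 145, 97.8, 38.2, 81.4 and 161 in FLL mice. The LL groups had the lower mean in each sex, but ranges overlapped in both. LL mice also had the higher mean label age in each sex, at 13.25 weeks in MLL and 12.25 in MPP, and 12.4 in FLL and 11 in FPP mice. Nr1d1 was called neither without nor with age in the model, so the calls do not show the part of age. Over the 18 mice, age and Nr1d1 had a Pearson r of -0.59 (two-sided permutation p = 0.0114, adjusted p = 0.183). The part of age in the LL difference of Nr1d1 was not tested. The averaged log2 fold change was -0.49 ± 0.25 (SE), with an unadjusted p of 0.0482 and an adjusted p of 0.292 (DESeq2), which did not pass the test. The interval of the averaged fold was 0.505 to 0.997. Of the 31-base words of Nr1d1 transcripts, 50.9% also occur in Thra, a thyroid hormone receptor gene that overlaps it on the other strand, and Thra itself had only 9.07 to 24.1 normalized counts. No source used here states whether counting used strand. The summed TPM of 4 Kupffer cell markers (Clec4f, Cd5l, Vsig4, Adgre1) was 32.0 to 128 in MPP and 39.3 to 72.9 in MLL, and 86.7 to 136 in FPP and 54.5 to 100.1 in FLL mice. Of these markers, 1 of 4 (Vsig4) was called lower by DESeq2 in the averaged contrast, beside 0.979% of all genes called there. By edgeR none of the 4 was called in that contrast. All 4 had an unadjusted DESeq2 p below 0.05 there (median log2 fold change -0.56), beside 13.8% of all genes. In MLL against MPP 3 of 4 and in FLL against FPP 2 of 4 passed this limit, beside 7.83% and 13.1% of all genes. The part of Kupffer cells in the Nr1d1 values was not tested.

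Dbp (ENSMUSG00000059824, chromosome 7, 45354512 to 45359627), the D-box activator and the member with the highest median TPM, was at 357, 291, 250 and 253 normalized counts in MPP and at 261, 205, 263 and 306 in MLL mice. It was at 373, 322, 316, 419 and 174 in FPP and at 377, 252, 106, 365 and 498 in FLL mice. The means were 288 ± 49.7 (SD, n = 4), 259 ± 41.3 (n = 4), 321 ± 92.1 (n = 5) and 320 ± 148 (n = 5). Its log2 fold change was -0.15 ± 0.32 (SE) for MLL against MPP and -0.01 ± 0.29 for FLL against FPP (DESeq2 adjusted p = 0.948 and 0.996). Of its words, 16.9% occur in Sphk2, a lipid kinase gene that overlaps it on the other strand. Sphk2 had 35.0 to 125 normalized counts, and the part of Sphk2 reads in the Dbp values was not tested. Nr1d2 (ENSMUSG00000021775, chromosome 14, 4230545 to 4266624), which encodes REV-ERBβ, ranged only from 279 to 454 normalized counts over all 18 mice.

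Among the Per genes, whose proteins block the BMAL1 and CLOCK pair, Per3 (ENSMUSG00000028957, chromosome 4, 151081373 to 151129140) had higher means in females. It was at 91.2, 78.7, 79.9 and 92.7 in MPP and 115, 57.5, 70.5 and 124 in MLL mice, against 108, 92.7, 167, 142 and 92.3 in FPP and 137, 119, 98.4, 186 and 165 in FLL mice. FLL mice 1, 4 and 5 lay above every MLL mouse, while FLL mouse 2 lay below MLL mouse 4 and FLL mouse 3 below MLL mice 1 and 4. The log2 fold change was 0.49 ± 0.25 (SE) for FPP against MPP, with an unadjusted p of 0.0451 and an adjusted p of 0.270, and 0.62 ± 0.24 for FLL against MLL, with an unadjusted p of 0.0117 and an adjusted p of 0.108 (DESeq2). Neither passed the test, and the fold intervals were 1.01 to 1.96 and 1.10 to 2.14. Per3 was called for FLL against MLL when fragment length was added as a term (0.84, adjusted p = 0.0316), without MLL mouse 4 (0.80, adjusted p = 0.0374) and without FLL mouse 3 (0.73, adjusted p = 0.0437), and in none of its other 24 settings. The difference of the LL effect between the sexes was 0.13 ± 0.35 for Per3 (SE, unadjusted p = 0.718).

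Per1 (ENSMUSG00000020893, chromosome 11, 68986035 to 69002300) was at 46.4, 25.2, 47.9 and 43.2 in MPP, 22.0, 26.4, 32.1 and 46.5 in MLL, 24.8, 39.1, 77.2, 10.9 and 78.4 in FPP and 41.0, 26.7, 42.3, 75.3 and 81.0 in FLL mice. Both female groups reached values that no male did, and FPP mouse 4 had the lowest Per1 of all 18 mice. The log2 fold change for FLL against MLL was 0.74 ± 0.44 (SE, adjusted p = 0.342, DESeq2). Per2 (ENSMUSG00000055866, chromosome 1, 91343700 to 91387069) was 96.2 ± 11.6 (SD, n = 4) in MPP, 97.2 ± 5.78 (n = 4) in MLL, 107 ± 17.4 (n = 5) in FPP and 120 ± 34.4 (n = 5) in FLL mice, and none of its contrasts passed the test. Cry1 (ENSMUSG00000020038, chromosome 10, 84967560 to 85021252), the other blocker of the pair, ranged from 11.8 to 52.0 normalized counts over all mice. It was 22.3 ± 6.94 (SD, n = 4), 31.5 ± 6.49 (n = 4), 27.9 ± 10.3 (n = 5) and 29.3 ± 14.6 (n = 5) in MPP, MLL, FPP and FLL mice.

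Over the remaining contrasts, 7 of 8 members had a higher mean in FPP than in MPP mice (median log2 fold change 0.17 against 0.00 over all genes), and 5 of 8 in FLL than in MLL mice (0.30 against 0.01). For FPP against MPP the log2 fold changes were -0.06 for Clock, 0.47 for Nr1d1, 0.08 for Nr1d2, 0.16 for Dbp, 0.19 for Per1, 0.15 for Per2, 0.49 for Per3 and 0.34 for Cry1. For FLL against MLL they were -0.36 for Clock, 0.46 for Nr1d1, -0.20 for Nr1d2, 0.30 for Dbp, 0.74 for Per1, 0.30 for Per2, 0.62 for Per3 and -0.11 for Cry1. The fold intervals ran from 0.631 to 2.23 and from 0.572 to 3.02. For LL against PP averaged over the sexes, 3 of 8 were higher, with a median of -0.06 and fold intervals from 0.505 to 1.74. The values were -0.23 for Clock, -0.49 for Nr1d1, -0.05 for Nr1d2, -0.08 for Dbp, -0.08 for Per1, 0.09 for Per2, 0.16 for Per3 and 0.30 for Cry1. For the difference of the LL effect between the sexes, 4 of 8 were higher in females, with a median of 0.06 and intervals of the ratio of folds from 0.367 to 3.38. The values were -0.30 for Clock, -0.01 for Nr1d1, -0.28 for Nr1d2, 0.14 for Dbp, 0.55 for Per1, 0.15 for Per2, 0.13 for Per3 and -0.45 for Cry1. The contrasts share groups and are not independent of each other.

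Several clock genes varied widely between mice of 1 group. The SD of log2(normalized count + 1) within groups was 0.77 for Per1, 0.63 for Nr1d1, 0.56 for Cry1 and 0.55 for Dbp. These lay at the 92.3, 88.1, 84.0 and 83.6 percentiles of all tested genes, whose median was 0.32. Per3 (0.38) was at the 62.7 percentile, and Clock (0.27), Per2 (0.26) and Nr1d2 (0.22) lay below the median of all genes. Counting error gave a part of this spread that differed between genes and groups. Per1 in FPP mice had a coefficient of variation of 66.5% where counting alone gives 13.1%, and Nr1d1 in FLL mice had 47.2% where counting gives 9.82%. Dbp in FLL mice had 46.3% against 5.68%, and in MLL mice 16% against 6.49%. For Cry1 the coefficient of variation was closer to counting error, at 31.1% against 22.2% in MPP and 20.6% against 18.3% in MLL mice, and farther from it at 37.1% against 17.1% in FPP mice. Per2 in MLL mice (5.95% against 10.6%) and Per3 in MPP mice (8.59% against 11.2%) varied less than counting alone gives.

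Some of this variation was shared between members. Pearson r of log2(normalized count + 1) over the 18 mice was computed for all 28 pairs of the 8 tested members, and 4 pairs had a permutation p below 0.05 after Benjamini-Hochberg adjustment. These pairs were examined after Bmal1 had proved too scarce to serve as a marker of phase. Dbp rose with Nr1d1 from mouse to mouse, with r = 0.81 (two-sided permutation p = 7e-05, adjusted p = 0.00154) and Spearman's rho = 0.76 (p = 0.00037, adjusted p = 0.00518). Without FPP mouse 1 and FLL mouse 3, the farthest from the median of Nr1d1, r was 0.71 (permutation p = 0.00184). Within the 10 females r was 0.89 and within the 8 males 0.24, a difference that was not tested, and with group means taken off it was 0.83. On log2(TPM + 1) it was 0.77.

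Per1 and Per2 also varied together, with r = 0.78 (two-sided permutation p = 0.00011, adjusted p = 0.00154) and rho = 0.77 (p = 0.00029, adjusted p = 0.00518). It was 0.83 within females and 0.43 within males, and 0.79 without FPP mouse 4 and FLL mouse 5 (permutation p = 0.00011). On the TPM scale r was -0.02, with the Per2 value of FLL mouse 2 included. Clock fell where Dbp rose (r = -0.64, permutation p = 0.00264, adjusted p = 0.0185; rho = -0.71, p = 0.00123, adjusted p = 0.0111), with r = -0.65 in females, -0.70 in males and -0.54 without FLL mice 1 and 5. Clock also fell where Per3 rose (r = -0.71, permutation p = 0.00093, adjusted p = 0.00868; rho = -0.64, p = 0.00518, adjusted p = 0.0290), with r = -0.84 in females, -0.30 in males and -0.65 without FLL mice 1 and 5. On the TPM scale r was -0.11 for Clock with Dbp and 0.27 for Clock with Per3, so both relations of Clock depended on the scale.

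**Figure D3:**
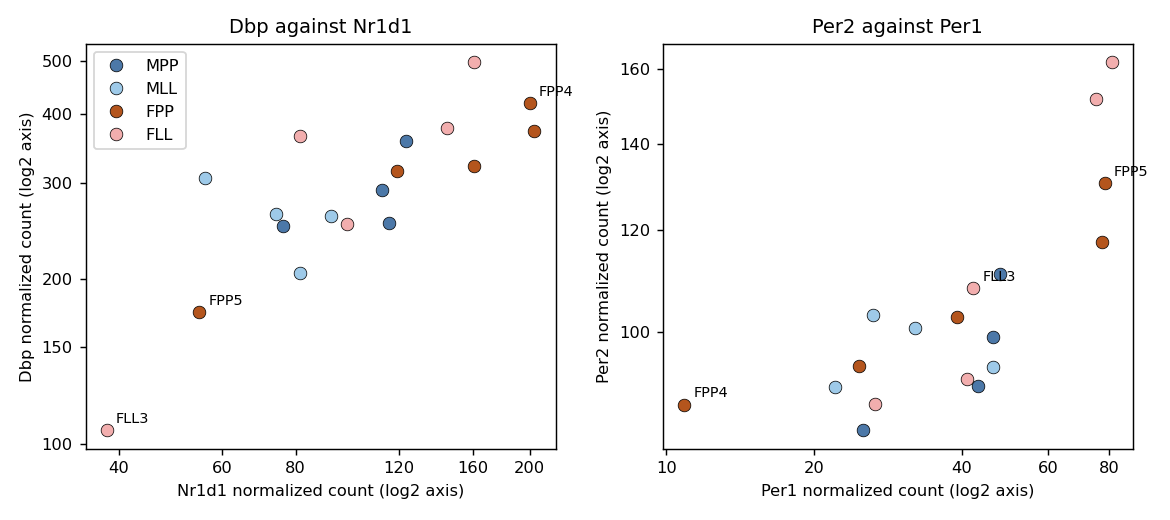
Normalized counts of Dbp against Nr1d1 (left) and Per2 against Per1 (right) in 18 mice, both axes log2-scaled, with 1 point per mouse coloured by group. FLL mouse 3 and FPP mouse 5 lie at the lower left for Nr1d1 and Dbp, and FPP mouse 4 combines the lowest Per1 with high Nr1d1 and Dbp.

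Bmal1, planned as the reference for the other members, gave r from -0.57 (Dbp) to 0.30 (Clock) over 9 pairs, none with an adjusted permutation p below 0.05 (the lowest was 0.120). Its r with Dbp was -0.60 in females and -0.63 in males, with rho = -0.53 over all mice (permutation p = 0.0245, adjusted p = 0.110). These values rest on 0 to 8 counts per library and are no finding. Neither fragment length nor age passed the adjusted test with any tested member (16 pairs). The closest was age with Nr1d1, with r = -0.59 (permutation p = 0.0114, adjusted p = 0.183) and rho = -0.62 (p = 0.00815, adjusted p = 0.130). For this pair r was -0.42 without FPP mice 1 and 2, and -0.47 with group means taken off.

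Each mouse was then placed on an index of its own clock genes, as a guide to the phase at which it was sampled. The phase index was the mean log2(normalized count + 1) of Nr1d1, Nr1d2, Dbp, Per1, Per2 and Per3 less that of Bmal1, Clock and Npas2. It was 5.08, 3.90, 4.01 and 4.24 in MPP, 3.8, 3.32, 3.71 and 3.85 in MLL, 4.71, 4.39, 5.04, 4.19 and 3.66 in FPP and 4.45, 4.05, 3.36, 5.08 and 5.29 in FLL mice. All 4 MLL mice lay below all 4 MPP mice, and the female groups overlapped. On TPM the MPP (1.89 to 2.20) and MLL (2.00 to 2.40) ranges overlapped, and the index includes the near-empty Bmal1 and Npas2. No test was made of an index over the members.

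The early-late index was added to leave out the scarce genes, and was the mean log2(normalized count + 1) of Nr1d1 and Dbp, which peak earlier in the day, less that of Per1, Per2 and Cry1, which peak later. It was 1.99, 2.48, 1.41 and 1.99 in MPP, 2.00, 1.59, 1.43 and 1.35 in MLL, 2.80, 2.05, 1.55, 3.61 and 0.487 in FPP and 2.58, 2.11, 0.037, 1.31 and 1.89 in FLL mice. The groups overlapped in both sexes. Male mice stayed within 1.35 to 2.48, 6 of the 10 females lay outside that span, and the widest values were female, from 0.037 in FLL mouse 3 to 3.61 in FPP mouse 4. In FLL mouse 3 the lowest Nr1d1 (38.2) and Dbp (106) of all mice stood beside the highest Cry1 (52.0) and the highest Bmal1 (6.50). FPP mouse 5 had the second pair of low values, with Nr1d1 at 54.8 and Dbp at 174 beside Per1 at 78.4. FPP mouse 4 had the reverse, with Nr1d1 at 200 and Dbp at 419 beside the lowest Per1 (10.9) and Cry1 (11.8).

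**Figure D4:**
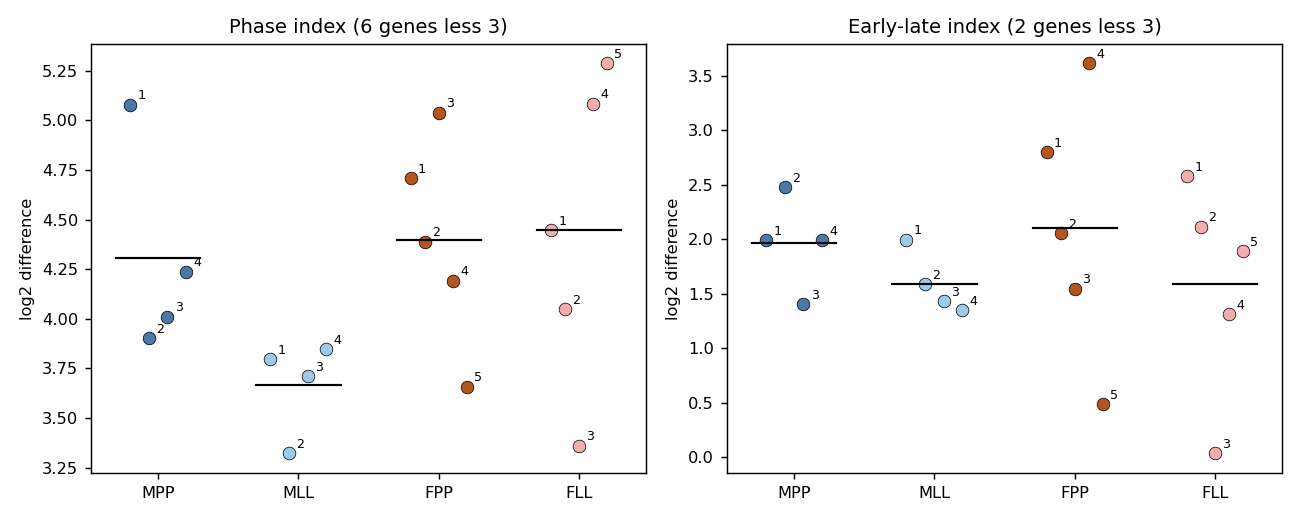
Phase index (left) and early-late index (right), both differences of mean log2 values on the vertical axis, for each mouse in the 4 groups, with the mouse number beside each point and a line at the group mean. In the early-late panel the male mice lie between 1.35 and 2.48, while FLL mouse 3 (0.037), FPP mouse 5 (0.487) and FPP mouse 4 (3.61) lie farthest outside that span, and 6 of the 10 females lie outside it in all.

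The genes most like the phase index over the 18 libraries, with group means taken off, were named among 5639 genes with a mean of at least 50 normalized counts. The highest Pearson r was 0.84 for Ypel3, followed by Gch1, the first enzyme of tetrahydrobiopterin synthesis (0.81), Arf5 (0.80), Znrf1 (0.80) and BC024386 (0.79). The lowest was -0.83 for Eprs1 and 2210418O10Rik, followed by Farsb and Anp32e (-0.81) and Vps33a (-0.78). Eprs1 and Farsb encode subunits of aminoacyl-tRNA synthetases. These are descriptions over 18 mice that share depth and fragment length differences.

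Of 34 further clock genes, 31 were tested, and 1, Elovl3, was called by DESeq2 and by edgeR, in both contrasts between the sexes. Of all genes, DESeq2 called 6.45% (FPP against MPP) and 6.12% (FLL against MLL), and edgeR called 5.24% and 4.28%. The count of 1 in 31 is therefore not above the background. None of the 31 was called in the contrasts between genotypes by either tool. There 2 (MLL against MPP), 4 (FLL against FPP) and 5 (averaged) of the 31 had an unadjusted DESeq2 p below 0.05, where 7.83%, 13.1% and 13.8% of all genes lay. In FPP against MPP and FLL against MLL these were 8 and 7 of the 31, beside 17.5% and 20% of all genes. Elovl3, a very-long-chain fatty acid elongase with a daily rhythm in liver, was at 286, 306, 281 and 171 normalized counts in MPP and 272, 273, 420 and 161 in MLL mice. It was at 16, 0, 8.39, 6.34 and 10.4 in FPP and 26.4, 16.8, 18.7, 6.17 and 13.1 in FLL mice, so every female lay below every male. The log2 fold change was -4.96 ± 0.39 (SE, adjusted p = 6.65e-34) for FPP against MPP and -4.09 ± 0.37 (adjusted p = 1.75e-25) for FLL against MLL (DESeq2).

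By role, neither Cry2 nor Rora of the core loop, none of the 6 bZIP factors and repressors (Tef, Hlf, Nfil3, Bhlhe40, Bhlhe41, Ciart), none of the 9 kinases and turnover factors and none of the 5 tested temperature and heat-shock genes was called in any contrast. Ciart, a repressor of the BMAL1 and CLOCK pair, had a log2 fold change of -0.94 ± 0.36 for FLL against MLL (SE, adjusted p = 0.0883), and Bhlhe40, an E-box repressor, had 0.56 ± 0.22 (adjusted p = 0.0917, DESeq2).

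Marker genes of liver cell types were compared between the sexes on the TPM scale, where the sums of several lists were higher in females, hepatocytes included. The sum of the 6 hepatocyte markers was 22475 to 38083 TPM in MPP and 78604 to 134873 in FPP mice. It was 40380 to 55529 in MLL and 60983 to 80691 in FLL mice. Most of this sum was Alb, at a mean of 19184 TPM in MPP and 82636 in FPP mice. On normalized counts, mean Cyp2e1 was 44484.5 in MPP and 31666 in FPP mice, and mean Pck1 was 11149.6 and 9498.11. Means of Alb, Apoa1, Ttr and Cps1 were higher in FPP mice. Gckr, not a marker gene, had mean TPM of 39.6 in MPP and 86.7 in FPP mice, beside 518 and 611 normalized counts. The part of the TPM scale in the marker sums was not tested. The sum of the sinusoidal endothelial markers (Stab2, Clec4g, Kdr, Pecam1) was 4.66 to 18.7 in MPP and 28.3 to 50.5 in FPP mice, and 10.7 to 19.9 in MLL and 17.4 to 36.1 in FLL mice. That of the stellate cell and fibroblast markers (Lrat, Reln, Dcn, Col1a1) was 12.6 to 42.1 in MPP and 63.1 to 80 in FPP mice, and it overlapped between MLL (34.8 to 68.6) and FLL mice (37.7 to 81.1). On gene counts, 1 of 6 hepatocyte markers (Alb), 2 of 4 endothelial markers (Kdr, Clec4g) and 3 of 3 tested stellate cell markers were called higher by DESeq2 in FPP than in MPP mice, beside 6.45% of all genes called. By edgeR the same genes were called except the stellate cell marker Lrat, beside 5.24% of all genes. In FLL against MLL none of these 13 tested markers was called. Of the other lists, Vsig4 (1 of 4 Kupffer cell markers) was called higher in FLL against MLL, beside 6.12% of all genes by DESeq2. Alas2 (1 of 3 erythroid markers) was called lower in FPP against MPP and in FLL against MLL, beside 6.45% and 6.12%. Both genes were called by DESeq2 and by edgeR. The part of these cell types in the Per3 and Elovl3 values was not tested, and in bulk tissue fewer cells and less RNA per cell cannot be told apart.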

How the data were processed

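RNA from whole liver of 18 mice was sequenced, and the authors checked reads with FastQC, did not trim them and assigned them to GENCODE M26 transcripts (GRCm39) with Salmon 1.4.0, per the submitters' processing notes and the methods of the study. The deposited tables give an estimated count and a TPM value per transcript, with its length and effective length. The authors left these estimated counts unscaled, and the TPM values the authors deposited sum to the same total in each.

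Transcripts were joined to genes by GENCODE M39 (GRCm39), which left out 1655 transcripts and kept at least 99.76% of the counts of a library. Estimated counts were summed per gene and rounded. Testing was limited to genes reaching 10 counts in 4 or more libraries, and was done with DESeq2 1.42.0 in R 4.3.3 (median-of-ratios scaling and the Wald test over the 18 libraries in 1 fit of 4 groups). Unless edgeR 4.0.16 (quasi-likelihood test) is named, p-values of contrasts are those of DESeq2. Of the genes that passed, 10930 had a p-value. Fragment length is length less effective length, as a median over transcripts of at least 3000 bases. Correlations were tested with 100000 permutations in scipy 1.17.1. On simulated counts with 200 of 10938 genes changed 2-fold, DESeq2 recovered 72.2% for MLL against MPP and 82.8% for FLL against FPP. It made 17.3 and 18.3 false calls on average. The changed genes were drawn without regard to their spread, so this recovery does not stand for the members that varied widely within groups. Libraries of a group differed beyond sampling noise (chi-square per degree of freedom 11.7 to 93.8 over 32 pairs), so none was counted as a repeat. Each library is a separate mouse.

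The genes named were the 10 members (Bmal1 and Npas2 only between groups, by exact permutation test), further clock genes where called, and the 5 genes with the highest and the 5 with the lowest r with the phase index. Further clock genes given with values below the threshold were chosen after their values were seen. The values of 1 further clock gene are not reported here. The members and lists were chosen with earlier results of these data known. The intervals of folds are at 95%, and floors cover counting error only. Alternatives were the edgeR test, TMM scaling, no filter on low counts, no independent filtering, a transcript length offset, fragment length or age as a covariate, the replicate number as a block, only the groups compared, and each mouse left out in turn.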

Additional observations from a re-analysis of the deposited data

How the results depend on the processing

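Over 27 alternative settings, the 8 tested members gave 1280 log2 fold changes. Of these, 3 were called, all of Per3 for FLL against MLL, so the number of members called there was 1 with fragment length as a covariate and 0 to 1 when each mouse was left out. In the other 5 contrasts it was 0 under every setting. Of the 1280 values, 62 had the opposite sign, 41 of them with a mouse left out, and in none of these was the gene called. The causes were not tested.

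With the transcript length offset, log2 fold changes for MLL against MPP became 0.047 for Clock, 0.11 for Per1, -0.011 for Nr1d2 and 0.028 for Dbp. They became 0.088 for Clock in FPP against MPP, 0.26 for Per1 in the averaged LL contrast, -0.13 for Cry1 in FLL against FPP, 0.33 for Cry1, 0.024 for Nr1d2 and -0.19 for Dbp in FLL against MLL, and -0.37 for Dbp in the difference between the sexes. Under the same offset, values that kept their sign moved far for Per2, to 5.25 in FLL against FPP, 5.34 in FLL against MLL, 2.71 in the averaged contrast and 5.07 in the difference between the sexes, where the offset takes in the short Per2 transcript of FLL mouse 2, and to 1.09 for Cry1 in FPP against MPP. With fragment length as a covariate they became 0.16 for Per1 and 0.049 for Nr1d2 in the averaged contrast and -0.023 for Per2 in MLL against MPP. With age as a covariate they became -0.030 for Per1 and 0.10 for Dbp in FLL against FPP, -0.051 for Per2 in MLL against MPP, -0.0022 for Per2 and 0.016 for Dbp in the averaged contrast, and 0.11 for Nr1d1 in the difference between the sexes.

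Within each group the label age rises or stays level with the mouse number, so the replicate block also takes in a part of age. The numbers were not taken to pair mice across groups. Deviations of same-numbered mice from their group means correlated at -0.17 to 0.05 between MPP and MLL and at -0.10 to 0.16 between FPP and FLL. With the replicate block, 0 members were called in every contrast, and Per1 in FPP against MPP became -0.088.

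When each mouse was left out, the ranges that crossed 0 were -0.15 to 0.011 for Clock, -0.045 to 0.096 for Per2, -0.085 to 0.27 for Per3 and -0.0091 to 0.19 for Nr1d2 in MLL against MPP. For FPP against MPP they were -0.15 to 0.038 for Clock, -0.095 to 0.44 for Per1 and -0.0040 to 0.18 for Nr1d2. For FLL against FPP they were -0.055 to 0.48 for Per1, -0.26 to 0.25 for Cry1 and -0.22 to 0.22 for Dbp, and for FLL against MLL -0.44 to 0.070 for Cry1. For the averaged contrast they were -0.20 to 0.064 for Per1 and -0.19 to 0.035 for Dbp, and for the difference between the sexes -0.043 to 0.31 for Per3, -0.22 to 0.21 for Nr1d1 and -0.074 to 0.37 for Dbp.

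On log2 TPM, r with Bmal1 became 0.15 for Per1, 0.046 for Per2, 0.011 for Per3 and 0.22 for Nr1d2, r of Clock with Per3 became 0.27 and r of Per1 with Per2 became -0.022. Bmal1 with Npas2 had r of 0.0074 in males, and Bmal1 with Cry1 had 0.087 without the 2 libraries farthest from the median. Depth limits Bmal1 and Npas2 above all, with 54 and 6 counts in 18 libraries.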

Other observations

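Over the 18 mice, the early-late index of the clock genes ran closely with several genes outside the clock, with group means taken off and among 5639 genes. The lowest Pearson r was -0.93 for Ahctf1, a nuclear pore assembly factor, followed by Bcl2l13 (-0.87), Lpin2, a phosphatidate phosphatase of triglyceride synthesis (-0.86), Sypl1 (-0.86) and Btaf1 (-0.85). The highest was 0.81 for Parp3, followed by Klhdc7a (0.80), Nr2f2, a nuclear receptor (0.77), Gm42047 (0.76) and Cndp2 (0.75). The index was chosen after the values were seen, FLL mouse 3 and FPP mouse 5 lie far from the other mice on it, and no test was made.

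The heat-shock genes Hsph1 and Hsp90aa1, which encode chaperones that also follow body temperature, had higher means in MLL than in MPP mice, at 0.74 ± 0.24 (SE, adjusted p = 0.110) and 0.56 ± 0.25 (adjusted p = 0.339) on the log2 scale (DESeq2). Of the other tested genes of this list, Hspa1b was higher there (0.21), and Cirbp (-0.43) and Rbm3 (-0.09) were lower. Hsph1 and Hsp90aa1 were also higher in FPP than in MPP mice, at 0.56 (adjusted p = 0.130) and 0.51 (adjusted p = 0.210, DESeq2). Rbm3 was lower there, at -0.49 (adjusted p = 0.0733, DESeq2). The difference of the LL effect between the sexes was -1.03 ± 0.32 for Hsph1 (unadjusted p = 0.00128) and -0.78 ± 0.33 for Hsp90aa1 (adjusted p = 0.394, DESeq2). DESeq2 gave no adjusted p for Hsph1 in that contrast, since its filter on low means set the gene aside, and edgeR did not call it. None of the adjusted p-values given here passed the test.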
